A study of Mus musculus with 18 samples.

Results

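The TNFR1 death arm and its caspase inhibitors were represented by 7 genes, Tradd, Fadd, Casp8, Ripk3, Mlkl, Xiap and Birc2, which are 7 of the 9636 genes measured on Affymetrix mouse arrays of JAK2V617F-driven myeloproliferative neoplasm (MPN). They were chosen by annotated symbol, and each was read by 1 of the 10335 probe sets. Bone marrow was taken from 3 to 4 Balb/c mice per experiment, in which a retrovirus carrying JAK2V617F and GFP had caused MPN. It was cultured for 16 h with IL-3 at 50 ng/mL and SCF at 100 ng/mL, without antibody or with a blocking antibody (BA) to TNFR1 or TNFR2 at 10 μg/mL. Lin-Kit+ cells were then sorted into GFP+ (JAK2V617F+) and GFP- (JAK2V617F-) cells, so that JAK2V617F- cells came from the same diseased marrow and are not cells of healthy mice. The 6 groups were TNFR2 BA, TNFR1 BA and untreated JAK2V617F+ cells, and TNFR2 BA, TNFR1 BA and untreated JAK2V617F- cells. Each had 3 arrays, except untreated JAK2V617F+ cells, which had 2 because the study excluded replicate 3 for quality. Of the 7 genes, Xiap alone passed the test in any comparison. It was near the lowest value of the table in untreated JAK2V617F+ cells and high in TNFR2 BA JAK2V617F+ cells and in JAK2V617F- cells of all 3 treatments, while the other 6 genes passed in none of the 12 comparisons.

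When TNF binds TNFR1, the adaptor TRADD is recruited together with kinases and ubiquitin ligases, and the first complex at the receptor activates NF-kB, which favors survival, and the kinase JNK. A second, cytoplasmic complex forms around FADD, which brings in caspase-8 and starts apoptosis. Where caspase-8 is blocked, the kinase RIPK3 phosphorylates the pseudokinase MLKL, which permeabilizes the plasma membrane in necroptosis. Birc2 encodes cIAP1, a ubiquitin ligase of the receptor complex that limits formation of the death complex, and Xiap encodes the X-linked inhibitor of apoptosis, which binds and blocks effector caspases. TNFR2 lacks a death domain and signals through TRAF proteins and cIAPs.

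The start regions of the inhibitor of apoptosis (IAP) genes among the members, Xiap and Birc2, are shown. Xiap carries the differences that passed the test, and Birc2 is set beside it. RefSeq lists 3 such windows for Xiap and 2 for Birc2, and the first of each is shown. They are on GRCm38.p6, from 250 bases before to 50 bases after a transcript start, written 5′ to 3′ on the gene's strand. The Xiap window lies at chrX:42068148-42068447 on the + strand and the Birc2 window at chr9:7837008-7837307 on the - strand. Capitals mark a match to the NF-kB motif.
Xiap: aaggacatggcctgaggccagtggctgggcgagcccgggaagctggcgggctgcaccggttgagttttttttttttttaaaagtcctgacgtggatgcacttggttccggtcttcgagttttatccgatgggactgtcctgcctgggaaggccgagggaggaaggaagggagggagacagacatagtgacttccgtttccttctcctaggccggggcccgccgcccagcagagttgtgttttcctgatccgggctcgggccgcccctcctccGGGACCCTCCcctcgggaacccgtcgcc
Birc2: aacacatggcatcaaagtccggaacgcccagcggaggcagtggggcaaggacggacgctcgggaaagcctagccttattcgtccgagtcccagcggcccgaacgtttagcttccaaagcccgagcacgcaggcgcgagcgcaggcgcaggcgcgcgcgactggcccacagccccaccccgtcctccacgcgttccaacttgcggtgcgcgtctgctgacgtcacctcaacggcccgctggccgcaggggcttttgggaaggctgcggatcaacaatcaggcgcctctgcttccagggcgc

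Both windows were rich in G and C, with 61.7% and 20 CpG dinucleotides for Xiap and 67% and 34 CpG dinucleotides for Birc2. The motifs were searched on both strands. The NF-kB motif had 1 match in the Xiap window shown, just downstream of the start, and 0 in each of the other 2 Xiap windows, and 8.46% of 32851 mouse windows held such a match. The STAT motif TTCNNNGAA, held by 8.3% of all windows, and the NF-kB motif had 0 matches in both Birc2 windows, and the STAT motif had 0 in each Xiap window. The GC box GGGCGG, held by 35.7% of windows, depended on the window, with 2, 2 and 0 matches in the 3 Xiap windows and 0 and 2 in the 2 Birc2 windows. Windows were found for 6 of the 7 genes, all except Tradd. A match is a string of letters only.

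Values are log2 signals as deposited by the authors, from 2.22 to 15.49, and the lowest value of 2.22 recurs on every array, so that a difference from a group near it may be understated. The 17 arrays used had medians of 7.41 to 7.75, and the excluded array had a median of 6.05. The table has no detection calls, and the number of arrays limits the precision. Jak2, whose probe set may or may not read the retroviral transcript, had a log2 signal of 5.73 to 10.8 in JAK2V617F+ arrays and 6.003 to 9.94 in JAK2V617F- arrays. Kit, the gene of the sorted surface receptor, had 3.71 to 9.95 in JAK2V617F+ arrays and 4.19 to 9.20 in JAK2V617F- arrays. Of the gated lineage markers, 3 of 9 were measured, and their summed log2 signal was 7.11 to 14.1 in JAK2V617F+ arrays and 8.20 to 15.2 in JAK2V617F- arrays. Mast cell genes, which include Gata2 of the progenitor list below, moved with genotype, and 8 of 9 were measured. Their summed log2 signal was 88.1 to 97.7 in JAK2V617F+ arrays and 51.0 to 67.0 in JAK2V617F- arrays. In the mean over treatments 8 of 8 had a positive genotype difference and 5 passed the test, where 0.358% of all probe sets passed. Erythroid genes, 5 of 9 measured, summed to 37.3 to 55.4 in JAK2V617F+ arrays and 27.5 to 42.1 in JAK2V617F- arrays. In the same mean 5 of 5 had a positive genotype difference and 2 passed. Sums for progenitor genes (5 of 5 measured; 43.9 to 55.6 in JAK2V617F+ arrays and 48.4 to 53.9 in JAK2V617F- arrays) and monocyte genes (4 of 5; 26.8 to 38.1 in JAK2V617F+ arrays and 22.1 to 39.7 in JAK2V617F- arrays) overlapped. The same held for T and NK cell genes (2 of 5 measured, 11.2 to 13.6 in JAK2V617F+ arrays and 12.9 to 17.03 in JAK2V617F- arrays). It also held for B cell genes (3 of 4 measured, 6.65 to 9.93 in JAK2V617F+ arrays and 6.78 to 13.3 in JAK2V617F- arrays). The B cell marker Cd79a was at the lowest value in all BA-treated JAK2V617F+ arrays. Its median in JAK2V617F- arrays was also the lowest value, 2.22, with a highest signal of 7.54. In such bulk RNA, fewer cells of a type and less RNA per cell cannot be told apart.

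**Figure D1:**
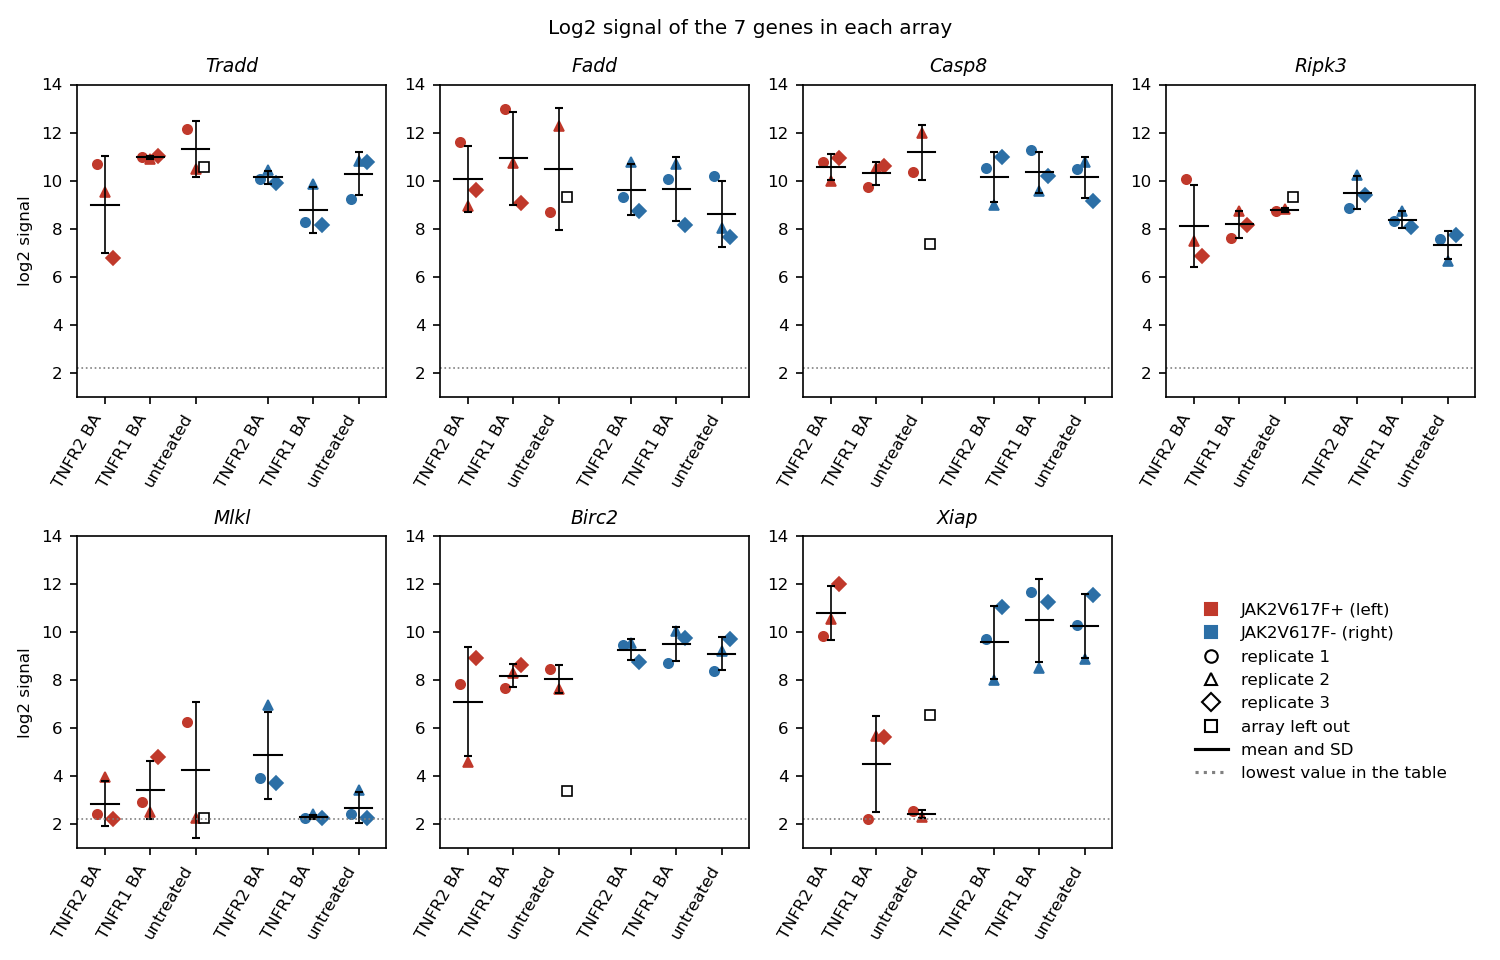
Log2 signal of each of the 7 genes in each array (y axis), by treatment within JAK2V617F+ cells (red, left) and JAK2V617F- cells (blue, right). Symbols are replicates 1 to 3, lines and bars the mean and SD, open squares the excluded array, and the dotted line the lowest value of the table. For Xiap, untreated and TNFR1 BA JAK2V617F+ arrays lie at 5.69 or lower and all other arrays used at 7.99 or higher.

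Tradd, the adaptor that binds the death domain of TNFR1, was most variable in TNFR2 BA JAK2V617F+ cells. In JAK2V617F+ cells, replicates 1, 2 and 3 had log2 signals of 10.68, 9.52 and 6.76 with TNFR2 BA and 10.97, 10.89 and 11.04 with TNFR1 BA, and the 2 untreated arrays had 12.13 and 10.50. In JAK2V617F- cells the signals were 10.06, 10.44 and 9.91 with TNFR2 BA, 8.26, 9.87 and 8.17 with TNFR1 BA, and 9.25, 10.83 and 10.78 untreated. All TNFR1 BA JAK2V617F+ arrays lay above all TNFR1 BA JAK2V617F- arrays and all TNFR2 BA JAK2V617F+ arrays, while untreated cells of both genotypes overlapped. The genotype difference with TNFR1 BA was 2.197 on the log2 scale (SE 0.84, limma adjusted p = 0.669). In JAK2V617F+ cells the difference was -1.97 (SE 0.84) for TNFR2 BA minus TNFR1 BA, with an adjusted p of 1 by limma, and -2.33 (SE 0.94) for TNFR2 BA minus untreated, with an adjusted p of 0.875. None of these passed the threshold of 0.05.

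Fadd encodes the adaptor that joins death receptors to caspase-8, and its groups overlapped in each comparison. JAK2V617F+ arrays had 11.60, 8.96 and 9.60 with TNFR2 BA, 12.96, 10.74 and 9.08 with TNFR1 BA, and 8.68 and 12.28 untreated. JAK2V617F- arrays had 9.32, 10.79 and 8.73 with TNFR2 BA, 10.08, 10.70 and 8.15 with TNFR1 BA, and 10.18, 8.03 and 7.64 untreated. The highest 3 of the 17 arrays were of JAK2V617F+ cells, and the lowest 2 were untreated JAK2V617F- arrays. Over all treatments the genotype difference was 1.20 (SE 0.68, limma adjusted p = 0.546), and it was positive in 6 of 8 pairs of arrays of the same replicate and treatment.

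Casp8, the initiator caspase of the arm, varied least of the 7 genes. Its signal ranged from 9.73 to 11.97 in the 8 JAK2V617F+ arrays and from 8.999 to 11.26 in the 9 JAK2V617F- arrays, and all groups overlapped. Its SD over the 17 arrays was 0.75, at percentile 14.5 of all probe sets. The genotype differences were 1.03 in untreated cells (95% CI -0.53 to 2.60), -0.05 with TNFR1 BA (95% CI -1.45 to 1.36) and 0.40 with TNFR2 BA (95% CI -1.003 to 1.80). In untreated cells the difference was -0.23 when the excluded array, where Casp8 had 7.36, was added.

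Ripk3, the necroptosis kinase, had arrays ordered by treatment in JAK2V617F- cells and overlapping in JAK2V617F+ cells, and none of its differences passed the test. JAK2V617F+ arrays had 10.07, 7.47 and 6.85 with TNFR2 BA, 7.63, 8.73 and 8.17 with TNFR1 BA, and 8.72 and 8.82 untreated. JAK2V617F- arrays had 8.85, 10.22 and 9.40 with TNFR2 BA, 8.31, 8.75 and 8.08 with TNFR1 BA, and 7.58, 6.66 and 7.75 untreated. In JAK2V617F- cells all TNFR2 BA arrays lay above all TNFR1 BA arrays, which lay above all untreated arrays. Between pairs of these treatments, 7.80% to 8.43% of all probe sets did not overlap. Both untreated JAK2V617F+ arrays lay above the untreated JAK2V617F- arrays, a comparison where 22.4% of all probe sets did not overlap. The difference in JAK2V617F- cells for TNFR2 BA minus untreated was 2.16 (SE 0.88, limma adjusted p = 1). The TNFR2 BA difference in JAK2V617F+ cells less that in JAK2V617F- cells was -2.80 (SE 1.32, limma adjusted p = 0.997).

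Mlkl, the membrane effector of necroptosis, had a signal under 4 on 14 of the 17 arrays, near the lowest value of the table. JAK2V617F+ arrays had 2.42, 3.95 and 2.22 with TNFR2 BA, 2.94, 2.53 and 4.78 with TNFR1 BA, and 6.27 and 2.26 untreated. JAK2V617F- arrays had 3.94, 6.95 and 3.70 with TNFR2 BA, 2.25, 2.42 and 2.24 with TNFR1 BA, and 2.42, 3.42 and 2.25 untreated. The 3 arrays at 4 or above came from 3 different groups, and in JAK2V617F- cells the TNFR2 BA arrays lay above the arrays of the other treatments. That difference was 2.56 against TNFR1 BA (SE 1.11, limma adjusted p = 1) and 2.17 against untreated (SE 1.11, limma adjusted p = 1).

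Birc2 (cIAP1) had a lower mean in JAK2V617F+ cells than in JAK2V617F- cells in each treatment, and none of these differences passed the test. JAK2V617F+ arrays had 7.85, 4.58 and 8.90 with TNFR2 BA, 7.66, 8.28 and 8.62 with TNFR1 BA, and 8.46 and 7.63 untreated. JAK2V617F- arrays had 9.46, 9.57 and 8.76 with TNFR2 BA, 8.72, 10.05 and 9.75 with TNFR1 BA, and 8.39, 9.21 and 9.73 untreated. With TNFR1 BA the genotypes did not overlap. With TNFR2 BA and in untreated cells 1 array of JAK2V617F+ cells reached the range of JAK2V617F- cells, and TNFR2 BA JAK2V617F+ replicate 2 was the lowest of the 17. Birc2 averaged 7.75 ± 1.36 in JAK2V617F+ arrays (SD, n = 8) and 9.29 ± 0.56 in JAK2V617F- arrays (SD, n = 9). The genotype difference over all treatments was -1.51 (SE 0.58, limma adjusted p = 0.365), negative in 6 of 8 pairs, and within treatments it was -1.06 untreated, -1.32 with TNFR1 BA and -2.15 with TNFR2 BA.

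Xiap had by far the widest range of the 7 genes. JAK2V617F+ arrays had 9.83, 10.53 and 12.01 with TNFR2 BA, 2.22, 5.69 and 5.64 with TNFR1 BA, and 2.53 and 2.31 untreated. JAK2V617F- arrays had 9.70, 7.99 and 11.04 with TNFR2 BA, 11.69, 8.52 and 11.26 with TNFR1 BA, and 10.30, 8.87 and 11.55 untreated. The 5 untreated and TNFR1 BA JAK2V617F+ arrays lay below the other 12, with TNFR1 BA replicate 1 at the lowest value of the table, and TNFR2 BA JAK2V617F+ arrays lay within or above the range of JAK2V617F- arrays. The excluded untreated JAK2V617F+ array had 6.57, between these sets. Group means were 10.8 ± 1.11 with TNFR2 BA, 4.52 ± 1.99 with TNFR1 BA (SD, n = 3 each) and 2.42 ± 0.16 untreated (SD, n = 2) in JAK2V617F+ cells. In JAK2V617F- cells they were 9.58 ± 1.53 with TNFR2 BA, 10.5 ± 1.72 with TNFR1 BA and 10.2 ± 1.34 untreated (SD, n = 3 each). The SD of Xiap over the 17 arrays was 3.41, at percentile 99.7 of all probe sets, and its SD within groups was 1.49, at percentile 52.1. For the other 6 genes the SD over arrays was 1.51 or less, at percentile 50.8 or below. The study picked Xiap, with the JNK gene Mapk8, for its pattern on these same arrays. Differences of either gene here are therefore not independent evidence of that pattern. Apart from the arrays, the paper reports quantitative PCR on other MPN mice. There Xiap was lower in JAK2V617F+ cells than in JAK2V617F- cells, and Mapk8 trended lower. The paper also reports both genes lower in cells of myelofibrosis patients than in normal bone marrow.

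The genotypes were compared within each treatment to ask which genes of the arm differ in mutant progenitors. In untreated cells Xiap fell by 7.82 on the log2 scale in JAK2V617F+ cells (SE 1.32, 95% CI -10.6 to -5.04, limma adjusted p = 0.0188), the third largest absolute difference of 10335 probe sets. With the replicate block it fell by 7.23 (limma adjusted p = 0.0332). It was 1 of 7 genes called, where 0.0774% of all probe sets were called. The call was lost when either untreated JAK2V617F- replicate 1 (limma adjusted p = 0.129) or replicate 3 (0.187), or untreated JAK2V617F+ replicate 2 (0.129), was left out. The other 6 genes ranged from -1.06 for Birc2 to 1.87 for Fadd, with a median of 1.24, where the median of all probe sets was -0.08. Genotypes did not overlap for Xiap and Ripk3, 2 of 7 genes, where this held for 22.4% of all probe sets.

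With TNFR1 BA the Xiap difference was -5.97 (SE 1.18, 95% CI -8.45 to -3.49), with a limma adjusted p of 0.0757, and 0 of the 7 genes passed, where 0.0871% of probe sets did. With the replicate block, which takes the arrays of 1 experiment as matched, the difference was the same and the limma adjusted p was 0.0294. It was negative in each of the 3 pairs, from -9.47 in replicate 1 to -2.83 in replicate 2. Without TNFR1 BA JAK2V617F- replicate 2 it passed, at -6.96 (limma adjusted p = 0.0447). The medians were 0.53 for the other 6 genes and 0.10 for all probe sets, and the genotypes did not overlap for Tradd, Mlkl, Xiap and Birc2, 4 of 7 genes, against 10.1% of all probe sets. Tradd and Mlkl lay higher and Xiap and Birc2 lower in JAK2V617F+ cells.

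With TNFR2 BA the genotypes overlapped for all 7 genes, where 10.1% of all probe sets did not overlap, and 0 of 7 genes passed, where 0.0387% of probe sets did. At an unadjusted p under 0.05 there was 1, Birc2, where 5.63% of probe sets were. The Xiap difference was 1.21 (95% CI -1.27 to 3.70, limma adjusted p = 0.954). The other 6 genes had a median of -1.25 against -0.01 for all probe sets. Averaged over the 3 treatments, Xiap fell by 4.19 in JAK2V617F+ cells (SE 0.71, limma adjusted p = 0.00774), 1 of 7 genes called where 0.358% of probe sets were, although this mean joins a difference of 1.21 with TNFR2 BA to those of the other treatments. The call was lost when all arrays of 1 replicate number were left out, with limma adjusted p-values of 0.266 without replicate 1, 0.0723 without replicate 2 and 0.123 without replicate 3. In that mean the other 6 genes ranged from -1.51 for Birc2 to 1.20 for Fadd, with a median of 0.35 against 0.00 for all probe sets.

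**Figure D2:**
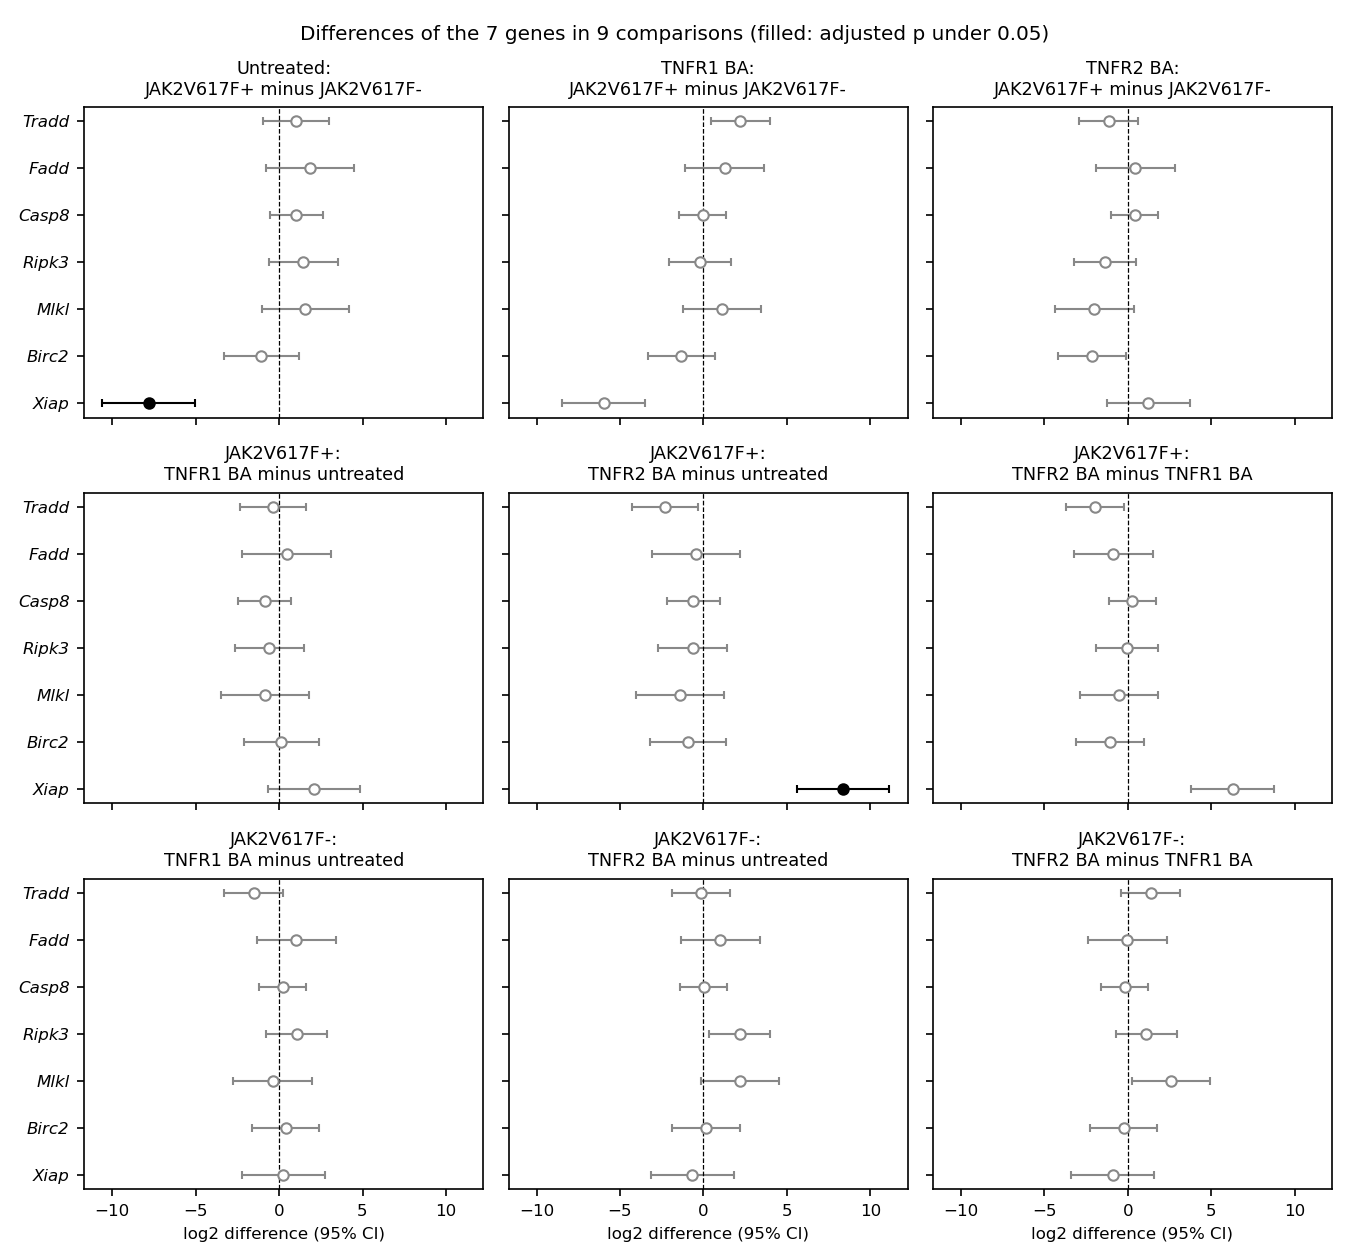
Log2 differences (x axis) with 95% confidence intervals for the 7 genes in the 3 genotype comparisons and 6 treatment comparisons. Filled points passed an adjusted p of 0.05 in limma. Xiap stands at -7.82 in untreated cells and at 8.37 for TNFR2 BA minus untreated in JAK2V617F+ cells, and no other gene is filled.

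Treatments were then compared within JAK2V617F+ cells to ask what blocking either receptor changed in the arm. With TNFR2 BA, Xiap rose by 8.37 relative to untreated cells (SE 1.32, 95% CI 5.59 to 11.1, limma adjusted p = 0.0291), the largest absolute difference of all probe sets. It was 7.78 with an adjusted p of 0.0612 by limma with the replicate block, so that this call was lost there, while both pairs moved the same way, by 7.30 and 8.22. It was 1 of 7 genes called, where 0.0290% of probe sets were, and the only 1 of the 7 whose groups did not overlap, where 15.6% of probe sets did not overlap. The call was lost without untreated JAK2V617F+ replicate 2 (limma adjusted p = 0.107), TNFR2 BA JAK2V617F+ replicate 2 (0.167) or TNFR2 BA JAK2V617F+ replicate 3 (0.159). The other 6 genes all had negative differences, from -2.33 for Tradd to -0.43 for Fadd, with a median of -0.79 against 0.06 for all probe sets, and 0 of these 6 passed. At an unadjusted p under 0.05 there were 2 of 7, Xiap and Tradd, where 5.26% of probe sets were.

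With TNFR1 BA the Xiap difference in JAK2V617F+ cells was 2.09 (95% CI -0.68 to 4.87, limma adjusted p = 0.834). None of the 7 genes passed, stood apart or had an unadjusted p under 0.05, where 0.00968% of probe sets passed, 18% did not overlap and 6.78% were at that unadjusted p, and the other 6 genes had a median of -0.47 against 0.10. Between the antibodies, TNFR2 BA minus TNFR1 BA, Xiap differed by 6.27 (SE 1.18, 95% CI 3.79 to 8.76), the second largest of all probe sets, with a limma adjusted p of 0.264, where 0% of probe sets passed. It was positive in each of the 3 pairs, from 4.84 to 7.62. Xiap and Tradd did not overlap, 2 of 7 genes where 8.03% of probe sets did not, with Xiap higher and Tradd lower with TNFR2 BA, and these were also the 2 genes at an unadjusted p under 0.05, where 4.37% of probe sets were.

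In JAK2V617F- cells 0 of 7 genes passed in any of the 3 treatment comparisons, where 0% of probe sets passed in each. The Xiap differences were 0.25 for TNFR1 BA minus untreated (95% CI -2.24 to 2.73), -0.67 for TNFR2 BA minus untreated (95% CI -3.15 to 1.82) and -0.91 for TNFR2 BA minus TNFR1 BA (95% CI -3.40 to 1.57). The groups stood apart without overlap for Ripk3 in each of the 3 comparisons, and for Mlkl and Tradd in some. For TNFR1 BA minus untreated it was Ripk3 alone (1 of 7, against 8.25% of probe sets), for TNFR2 BA minus untreated Ripk3 and Mlkl (2 of 7, against 7.80%), and for TNFR2 BA minus TNFR1 BA Tradd, Ripk3 and Mlkl (3 of 7, against 8.43%), all higher with the first-named antibody. At an unadjusted p under 0.05 there were 0, 1 (Ripk3) and 1 (Mlkl) of 7 genes, where 3.73%, 2.47% and 3.70% of probe sets were.

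Whether an antibody acted differently on the genotypes was tested by the difference of its differences. For TNFR2 BA, Xiap had 9.03 (SE 1.77, 95% CI 5.31 to 12.8, limma adjusted p = 0.414), the third largest of all probe sets. The other 6 genes all had negative values, with a median of -1.80 against 0.08, from -3.57 for Mlkl to -0.63 for Casp8. For TNFR1 BA, Xiap had 1.85 (95% CI -1.88 to 5.57, limma adjusted p = 0.948) and the other 6 a median of -0.52 against 0.20. None of the 7 genes passed in either test, and 0% of probe sets did. At an unadjusted p under 0.05 there were 3 genes for TNFR2 BA, Xiap, Ripk3 and Mlkl, where 3.83% of probe sets were, and 0 for TNFR1 BA, where 5.22% were.

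Set beside the rest of the arm within the same arrays, as a description with no test, the Xiap differences lay outside the range of the other 6 genes in each genotype comparison and in each treatment comparison of JAK2V617F+ cells. For TNFR1 BA minus untreated in JAK2V617F- cells Xiap, at 0.25, lay within their range of -1.52 (Tradd) to 1.05 (Ripk3). In the other JAK2V617F- comparisons Xiap lay below their range. It was -0.67 against -0.15 (Tradd) to 2.17 (Mlkl) for TNFR2 BA minus untreated. For TNFR2 BA minus TNFR1 BA it was -0.91 against -0.24 (Birc2) to 2.56 (Mlkl). The Xiap difference between genotypes less theirs was -9.68 (Fadd) to -6.75 (Birc2) log2 units in untreated cells. With TNFR1 BA it was -8.17 (Tradd) to -4.65 (Birc2), and with TNFR2 BA the Xiap difference lay above theirs, by 0.78 (Fadd) to 3.37 (Birc2). For TNFR2 BA minus untreated in JAK2V617F+ cells it lay above theirs by 8.80 (Fadd) to 10.7 (Tradd). Birc2, the other IAP gene of the 7, was nearest to Xiap in both genotype comparisons where Xiap was low. With TNFR2 BA it was the gene farthest from Xiap. Across the 17 arrays the 7 genes did not move as a set: of 21 pairs, 8 had a Pearson r above 0, from -0.68 for Tradd and Xiap to 0.47 for Tradd and Mlkl, and r was 0.19 for Xiap and Birc2. These correlations describe arrays that share groups and experiments.

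The mast cell and erythroid genes, all with positive genotype differences over all treatments, were set beside Xiap and Birc2 in the same arrays. The mean log2 signal of the mast cell genes was 11.3 to 12.2 in TNFR2 BA JAK2V617F+ arrays, where Xiap was 9.83 or higher, 11.0 to 12.2 in TNFR1 BA JAK2V617F+ arrays and 11.7 to 11.8 in untreated JAK2V617F+ arrays, where Xiap was 5.69 or lower. In JAK2V617F- arrays the mean was 6.38 to 8.37. Among JAK2V617F+ arrays, the mast cell ranges of those with high and those with low Xiap overlapped. The mean of the erythroid genes was 8.17 to 11.1 in TNFR2 BA, 7.47 to 11.0 in TNFR1 BA and 9.75 to 10.2 in untreated JAK2V617F+ arrays, which also overlapped, and 5.51 to 8.41 in JAK2V617F- arrays. The part of these cells in the values of Xiap and Birc2 was not tested.

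**Figure D3:**
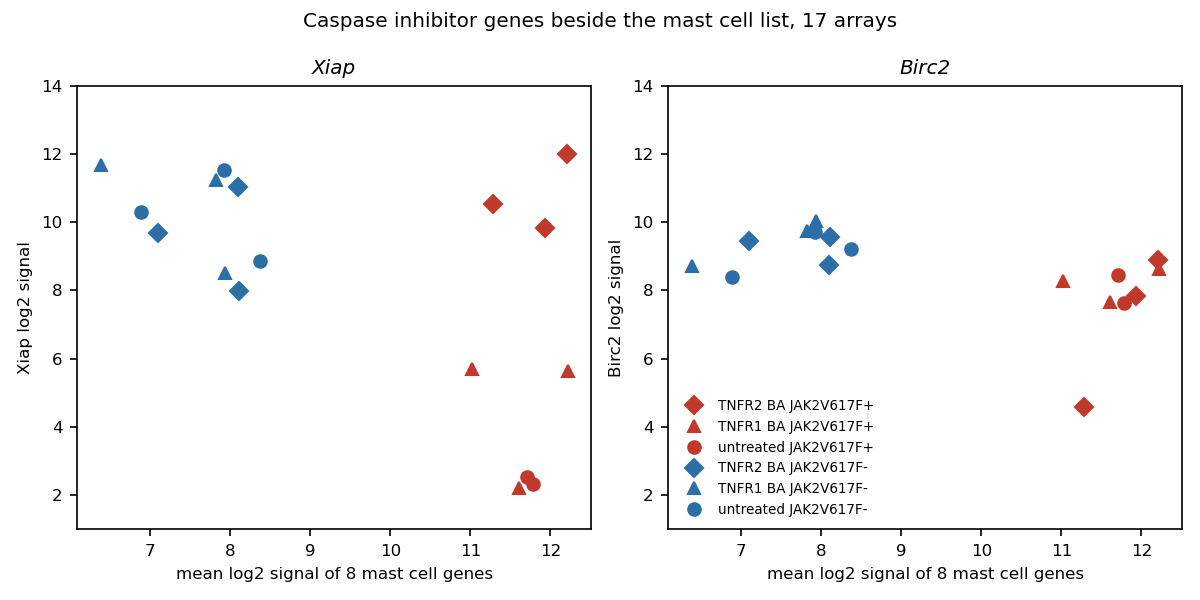
Log2 signal of Xiap (left) and Birc2 (right) against the mean log2 signal of 8 mast cell genes, 1 point per array, with JAK2V617F+ arrays in red, JAK2V617F- arrays in blue and treatments by symbol. At mast cell means of 11.0 or more, Xiap spans 2.22 to 12.01, with all 3 TNFR2 BA JAK2V617F+ arrays at the top.

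The genes with patterns most like each member were found by Pearson r over the 17 arrays, as a description. For Xiap they were Mapk8, a JNK (r = 0.80), Il1rap, a coreceptor of interleukin-1 (0.78), Tubgcp5, a component of the gamma-tubulin ring complex (0.76), Oip5os1 (0.75) and Hs1bp3 (0.74). Groups whose means differ enter these values, and on deviations from the group means r with Xiap was lower, at 0.47 for Mapk8, 0.42 for Il1rap, 0.48 for Tubgcp5, 0.50 for Oip5os1 and 0.32 for Hs1bp3. Mapk8 had 6.83, 9.10 and 8.61 in TNFR2 BA JAK2V617F+ arrays, 3.37, 7.10 and 9.76 in TNFR1 BA JAK2V617F+ arrays, and 3.42 and 2.25 in untreated JAK2V617F+ arrays, against 8.15 to 10.48 in all JAK2V617F- arrays. For Xiap and Mapk8 the untreated JAK2V617F+ arrays and TNFR1 BA JAK2V617F+ replicate 1 were low. TNFR1 BA JAK2V617F+ replicates 2 and 3 were higher for both genes. Xiap had 5.69 and 5.64 there, below all JAK2V617F- arrays, while Mapk8 in replicate 3 lay within the range of JAK2V617F- arrays. The study picked Xiap and Mapk8 together on these same arrays, so their likeness here is not independent evidence. The single most similar genes for the others were Enoph1 for Tradd (0.83), Dapk3 for Fadd (0.81), Pi4kb for Casp8 (0.82), Smg8 for Ripk3 (0.79), Mks1 for Mlkl (0.82) and Nfatc1 for Birc2 (0.81). Each was picked as the highest r among all other probe sets with 1 symbol, and its size was not tested against that choice. Mks1 was highest, at 4.38 and 4.83, in untreated JAK2V617F+ replicate 1 and TNFR2 BA JAK2V617F- replicate 2. Mlkl was also highest in these arrays, at 6.27 and 6.95.

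**Figure D4:**
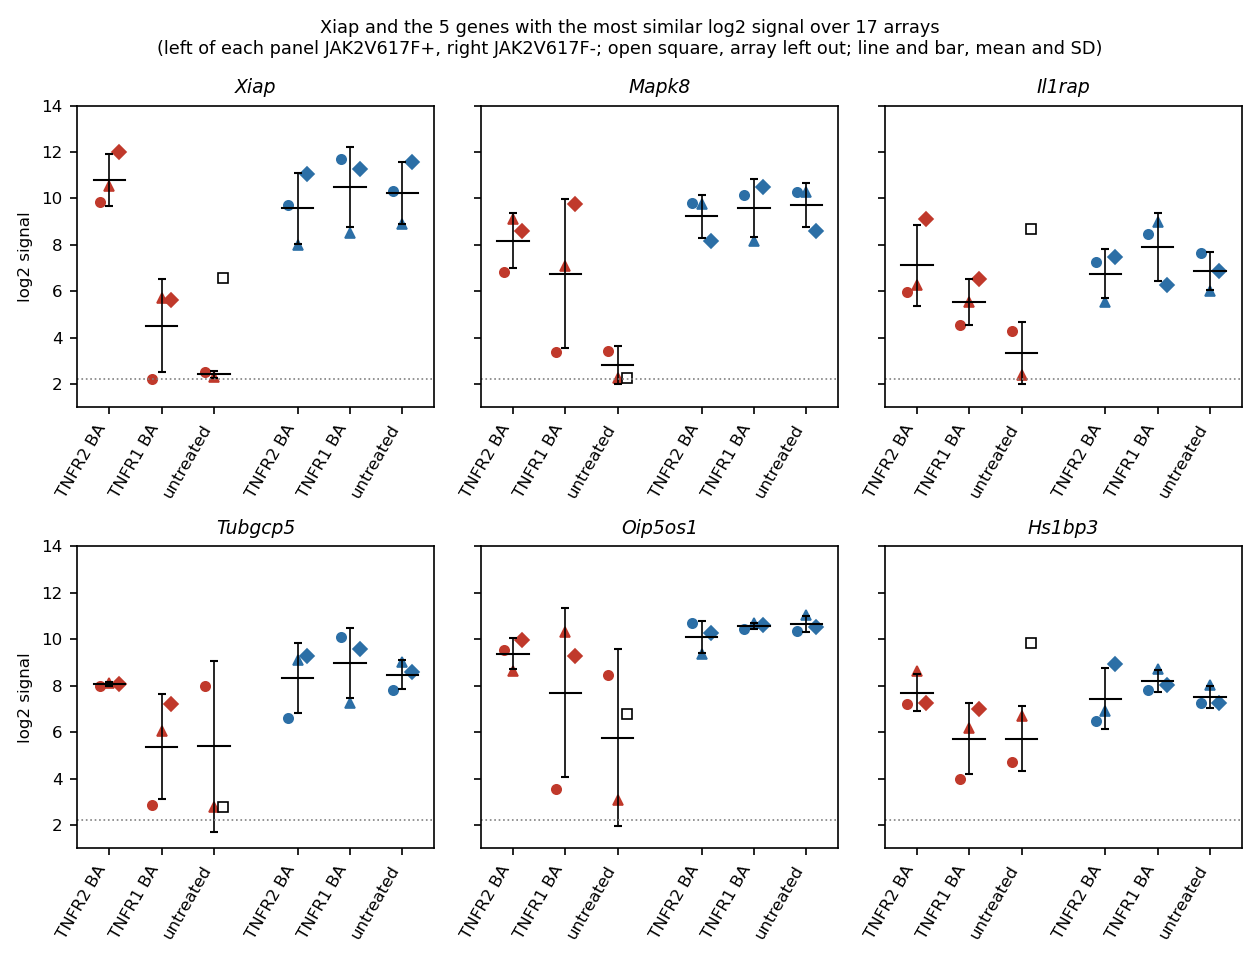
Log2 signal per array (y axis) of Xiap and of the 5 genes with the highest Pearson r with it over 17 arrays, by treatment within JAK2V617F+ cells (red, left) and JAK2V617F- cells (blue, right), with circles, triangles and diamonds for replicates 1, 2 and 3, open squares for the excluded array, and mean and SD. Untreated JAK2V617F+ arrays of Mapk8 lie at 3.42 or lower, and those of Oip5os1 and Tubgcp5 are split between a low and a high array.

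Of 45 further genes of TNF receptor signaling, 35 were measured, and 0 of 35 passed in any of the 12 comparisons. The 35 include Mapk8, which the study picked for its pattern on these same arrays. Among the 2 receptors, Tnfrsf1a differed between genotypes by 0.29 and Tnfrsf1b by -0.08 over all treatments. At an unadjusted p under 0.05 there were 5 of 35 in untreated cells, 5 with TNFR1 BA, 1 with TNFR2 BA and 4 over all treatments, where 7.32%, 6.21%, 5.63% and 10.3% of all probe sets were. In untreated cells the smallest p-values belonged to Mapk8, at -6.88 (SE 1.458, limma adjusted p = 0.142), and Nfkbia, the inhibitor of NF-kB, at -2.42 (SE 0.77, limma adjusted p = 0.481). Nfkbia had 9.37 and 7.68 in untreated JAK2V617F+ arrays and 11.20, 10.54 and 11.09 in untreated JAK2V617F- arrays, which did not overlap, and over all treatments its difference was -1.78 (SE 0.41, limma adjusted p = 0.0790) beside -3.59 for Mapk8 (SE 0.78, limma adjusted p = 0.0604). With TNFR1 BA the 2 smallest p-values belonged to Tab1, a partner of the kinase TAK1, at 3.26, and Mapk8 at -2.85, and with TNFR2 BA to Birc6, a giant member of the IAP family, at -5.06 (limma adjusted p = 0.692), and Nfkbia at -1.44.

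Between treatments the 2 smallest p-values in JAK2V617F+ cells belonged to Sharpin, a subunit of the linear ubiquitin ligase, and Mapk8. For TNFR1 BA minus untreated they had 1.19 and 3.91, and for TNFR2 BA minus untreated 0.82 and 5.34. For TNFR2 BA minus TNFR1 BA they were Birc5 (survivin), at -0.92, and Xaf1, an antagonist of XIAP, at 2.63. In JAK2V617F- cells they were Diablo, a mitochondrial antagonist of IAPs, at -1.86, and Traf5 at 2.40 for TNFR1 BA minus untreated, Diablo at -1.17 and Tab3 at -1.59 for TNFR2 BA minus untreated, and Casp9, a caspase that XIAP binds, at 4.24 and Tab3 at -1.97 for TNFR2 BA minus TNFR1 BA. In the difference of differences they were Sharpin (1.49) and Birc5 (2.16) for TNFR1 BA, and Mapk8 (5.83) and Diablo (2.53) for TNFR2 BA. Of the other IAP genes and partners, 4 were measured, Birc3, Birc5, Birc6 and Xaf1. In untreated cells their genotype differences were -0.02, -1.47, -3.27 and 0.28, and for TNFR2 BA minus untreated in JAK2V617F+ cells they were 0.86, 0.38, 0.29 and 2.15. None of these 8 values passed the test.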

How the data were processed

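Lin-Kit+ cells of 6 groups were measured on Affymetrix mouse expression arrays. The deposited values are log2 signals of probe sets that the authors obtained from Affymetrix Expression Console (submitters' processing notes). How they were normalized and how probe sets were chosen is not stated in the sources used. The values were used unchanged and carry no depth or detection call. Probe sets with 1 annotated symbol (9651, 27 had several and 657 none) covered 9636 genes, and 9625 symbols were found by Entrez ID in GRCm38.p6.

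Limma 3.58.1 in R 4.3.3 was fitted to the 6 group means of 17 arrays, with a variance trend and Benjamini-Hochberg adjustment over 10335 probe sets. No label says that replicates came from separate mice, and p-values measure the spread between these arrays. The methods describe 3 independent experiments, and the replicate number was read as the experiment and so pairs the arrays. Deviations from group means correlated by 0.008, 0.071 and 0.144 on average within replicates 1, 2 and 3 and by -0.033 between numbers. For 13 of 17 arrays the single most correlated array of another group had the same number. Reported values are from the unblocked fit. With groups of 3 an exact permutation test cannot give a p below 0.1.

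The genes, lists and tests were chosen with earlier results of these data known. Named genes were the 7 members, in each comparison the 2 pathway genes of smallest p and any that passed, the 5 probe sets of highest r with Xiap and the 1 of highest r with each other member, and marker genes at the lowest value. Tnfrsf1a, Tnfrsf1b, Jak2, Kit, Birc3 and values of named genes in further comparisons were added after their values were seen. The fit was tested on simulated data. The alternatives used 18 arrays, the replicate block, the compared groups alone, quantile normalization and a filter at a mean log2 signal of 5. Further alternatives were no trend, array weights, the methods' t-test and leave-one-out fits. Each leave-one-out fit left out a single array of the compared groups, or all arrays of a replicate number.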

Additional observations from a re-analysis of the deposited data

How the results depend on the processing

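The 6 genes other than Xiap passed in 0 of 1308 values under the alternatives, and 113 of these had the other direction than the reported value. Xiap kept its direction in each call. In untreated cells its difference was -6.44 with all 18 arrays (adjusted p = 0.123 by limma), -7.82 with only the compared groups (0.650), -7.76 with array weights (0.0540) and -7.16 with the methods' t-test (0.881), none of them passing, and it was -8.50 to -7.16 in leave-one-out fits, 6 of 8 of them not passing. With TNFR1 BA the replicate block gave -5.97 and passed, and leave-one-out fits gave -7.54 to -4.22, 1 of 9 passing. Over all treatments the methods' t-test gave -3.57 (0.547) and leave-one-out fits -5.13 to -3.45, 3 of 20 not passing. For TNFR2 BA minus untreated in JAK2V617F+ cells it was 6.98 with all 18 arrays (0.238), 7.78 with the replicate block (0.0612), 8.37 with only the compared groups (0.985), without a trend (0.0584) and with the methods' t-test (0.481), and 8.26 with array weights (0.182), none passing, and 7.76 to 8.95 in leave-one-out fits, 6 of 8 not passing. The count of the 7 genes called became 0 where Xiap no longer passed and 1 with TNFR1 BA and the replicate block, and leave-one-out fits gave 0 to 1. The replicate block changed no other call among the 7 genes. The cause of these moves was not tested.

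Counts over all probe sets moved more. In untreated cells 8 became 4 with all 18 arrays or array weights, 0 with the compared groups or the methods' t-test, and 0 to 171 in leave-one-out fits. With TNFR1 BA 9 became 5 with all 18 arrays and 0 with the compared groups or the methods' t-test, and with TNFR2 BA 4 became 2 with all 18 arrays, 9 without a trend and 0 with the compared groups or the methods' t-test, and leave-one-out fits gave 0 to 11 with TNFR1 BA and 0 to 6 with TNFR2 BA. Over all treatments 37 became 67 with the replicate block and 11 with the methods' t-test, and 6 to 119 in leave-one-out fits. In JAK2V617F+ cells the 3 for TNFR2 BA minus untreated became 1 with all 18 arrays, 4 with the methods' t-test and 0 with the replicate block, the compared groups or array weights, and the 1 for TNFR1 BA minus untreated became 2 with quantile normalization or the methods' t-test, 3 without a trend and 0 with the compared groups or array weights. Leave-one-out fits gave 0 to 55 for TNFR2 BA and 0 to 132 for TNFR1 BA. The methods' t-test gave 440 probe sets at p under 0.05 in untreated cells and 0 after Benjamini-Hochberg adjustment. For the comparisons with 0 calls, the methods' t-test gave 2 for TNFR2 BA minus TNFR1 BA in JAK2V617F- cells, the replicate block 1 for the TNFR1 BA difference of differences and the fit without a trend 1 for each difference of differences, and leave-one-out fits gave at most 1 between treatments and 20 (TNFR1 BA) or 7 (TNFR2 BA) for the difference of differences. Where leaving out an array left a group with 1, that array was assumed to vary like the others. Mlkl has no value under the filter on dim probe sets. Differences from groups near the lowest value of the table are limited by it.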
